A study of Mus musculus with 8 samples.

Results

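The genes described here are 10 genes of Nodal signalling, Wnt signalling and the primitive streak: Nodal, Lefty1, Lefty2, Wnt3, Wnt3a, Fgf8, T, Eomes, Tbx6 and Lhx1. They were taken by name from the table of an assay of newly made RNA in mouse embryonic stem cells, and all 10 were found among its 37730 gene entries. The RNA came from male cells of 129 background, taken from embryos 3.5 days after mating and grown without feeder cells in serum and leukaemia inhibitory factor (LIF), that carried a conditional knockout allele of Ythdc1, the gene of a nuclear protein that binds N6-methyladenosine in RNA. In 4sUDRB-seq, transcription is first blocked with DRB (100 μM during 3 h), and after the drug is washed out new RNA is tagged with 4-thiouridine (4sU, 1 mM), isolated and sequenced. The 4 groups were cells given 4-hydroxytamoxifen (4OHT at 1 μg/ml, used to trigger deletion in inducible knockout lines) and tagged during 8 min, solvent-treated cells (DMSO) tagged during 8 min, 4OHT cells at 0 min and DMSO cells at 0 min. Each group held 2 libraries, pretreatment lasted 4 days, and the cells of every group, DMSO included, carried the Ythdc1 allele. The labels do not name the Cre driver or the deleted part of the gene.

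Nodal is a secreted ligand of the TGF-β family that acts through activin receptors, the co-receptor Tdgf1 (Cripto) and the transducers Smad2 and Smad3. Lefty1 and Lefty2 are secreted inhibitors of Nodal and are themselves targets of the pathway, a negative feedback loop. In the mouse embryo Nodal and Wnt3 are needed to form the primitive streak, the structure through which mesoderm and endoderm arise. Wnt3a and Fgf8 act in the streak and the mesoderm that leaves it, and T (brachyury), Eomes, Tbx6 and Lhx1 are transcription factors of the streak and its descendants. Undifferentiated embryonic stem cells in serum and LIF hold most of these transcription factors at low levels.

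Promoters were read for the 3 genes that best show the range of responses: Nodal and Wnt3a, with higher levels in 4OHT cells at 8 min, and T, with the largest difference in the other direction. RefSeq promoter sequences (GRCm38.p6) were matched for 7 of the 10 genes, all but Lefty1, Lefty2 and Fgf8. The 250 bases before the annotated start are given 5′ to 3′ on the strand of the gene, with every motif match in capitals. The windows are chr10:61417722-61417971 on the plus strand for Nodal, chr17:8434173-8434422 on the plus strand for T, and chr11:59290752-59291001 on the minus strand for Wnt3a.
Nodal: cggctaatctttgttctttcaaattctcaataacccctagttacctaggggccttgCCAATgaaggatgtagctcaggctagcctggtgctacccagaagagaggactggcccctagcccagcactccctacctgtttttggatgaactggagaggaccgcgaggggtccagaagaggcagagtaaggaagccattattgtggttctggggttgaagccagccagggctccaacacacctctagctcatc
T: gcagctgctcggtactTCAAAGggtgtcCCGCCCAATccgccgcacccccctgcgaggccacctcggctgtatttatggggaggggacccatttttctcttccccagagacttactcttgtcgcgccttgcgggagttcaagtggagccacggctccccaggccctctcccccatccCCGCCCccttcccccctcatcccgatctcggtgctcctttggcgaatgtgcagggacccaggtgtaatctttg
Wnt3a: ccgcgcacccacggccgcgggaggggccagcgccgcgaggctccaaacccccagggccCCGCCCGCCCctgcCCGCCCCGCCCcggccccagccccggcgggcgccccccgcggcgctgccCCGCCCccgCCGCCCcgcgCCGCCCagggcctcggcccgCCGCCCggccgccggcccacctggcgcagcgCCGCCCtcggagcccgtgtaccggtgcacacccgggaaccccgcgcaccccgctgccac
Motifs were searched on both strands. The site of T-box factors was searched as TCACACCT, and its core, which overlaps it, as the letters GGTGTGA. Sites of the factors that carry Wnt and Nodal signals to DNA were TCAAAG for TCF and LEF proteins, AATNNACA for FOXH1 and the short element CAGAC for SMAD proteins. General promoter elements were the GC box with the letters GGGCGG, the TATA box, read as TATAAA here, and the CCAAT box. The T window held the TCF/LEF letters at position -234 from the start site, letters that 14.1% of all 27025 promoter windows of this length hold. It also held GC boxes at -222 and -73 and a CCAAT box at -218, which shares 2 letters with the GC box. The Nodal window held only a CCAAT box, at -194, found in 34.5% of windows. The Wnt3a window, with 87.6% G and C, held 9 GC boxes, some of them overlapping, a motif found in 32.9% of windows. In the other 4 promoters, SMAD letters (42.1% of windows) stood before Wnt3 at -135, Lhx1 at -60 and Tbx6 at -244, and only Tbx6 had a TATA box (-43, 13.0% of windows). No T-box or FOXH1 letters were matched in these 7 windows. A match is a string of letters, not a measured binding site.

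The deposited unit was a normalised read count, reads over a divisor that is constant within a library, so the reads could be recovered. They came to 118 M and 134 M (M, mega) in 4OHT and 112 M and 93.1 M in DMSO libraries at 8 min, and to 58.3 M and 57.6 M in 4OHT and 61.4 M and 46.3 M in DMSO libraries at 0 min. On the deposited scale the median gene was higher with 4OHT by 1.43 log2 units at 8 min and by 0.28 at 0 min, and what the divisor stands for is not stated. Values below were therefore scaled so that the median ratio between libraries is 1, a rise or fall is relative to the typical gene, and the deposited scale is given beside it where the direction changes. The 60 entries of added control RNA (ERCC spike-ins) were not used for scaling. At 8 min they held 48836 and 51734 reads in 4OHT libraries, against 30330 and 62724 in DMSO libraries. In the sample titles each labelling time has a cell line number of its own, whereas the columns carry numbers 1 and 2 at both times, so time and line may be confounded. Separate cultures are not stated for the libraries of a group, and the p-values therefore reflect the spread of these samples alone, which may be technical. None of 17 stem cell markers was at 0 reads in any library. At 8 min none of 14 trophoblast markers was either, so the presence of reads does not check the stem cell label. Summed levels in the 8 min libraries were 1084 to 1276 reads per M for the stem cell markers and 18.9 to 32.0 for the trophoblast markers. Ythdc1, the targeted gene (chromosome 5, 86803980 to 86836659), had scaled counts of 2041 and 2466 in 4OHT and 2939 and 3592 in DMSO libraries at 8 min. It fell by 0.53 log2 units (SE 0.13, limma adjusted p = 0.00254), but did not pass without 4OHT library 1 (-0.40, adjusted p = 0.169) and was 0.93 higher, not past the threshold, on the deposited scale. The counts are given for the gene as a whole, without the position of the reads in it, and check the deletion poorly.

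At 8 min, the scaled counts of Nodal and Wnt3a were higher in 4OHT than in DMSO cells, and those of Fgf8, T, Lefty2 and Tbx6 were lower. Lefty1 and Wnt3 differed by -0.02 and -0.03 log2 units, and they, Eomes and Lhx1 did not pass the threshold. Of the 10 genes, 9 reached a deposited value of 10 in 2 or more of the 8 libraries. Among them limma with Benjamini-Hochberg adjustment over 20635 genes called 2 higher, where 18.6% of all genes tested were higher, and 3 lower, where 16.7% were lower. T failed that filter and was tested among 32636 genes with 10 or more reads in 2 or more libraries, a filter added after the data were seen. By position alone, both 4OHT libraries lay above both DMSO libraries for 2 of the 10 genes, against 33.6% of all genes, and below them for 5, against 33.7%. Such shares correspond to between 1 and 2 of 9 genes in each direction for the test, so the counts alone do not set the members apart. How much of the 8 min counts is newly made RNA was not tested, since the 0 min libraries hold reads of these genes too. In DMSO cells Lefty2, Fgf8 and T were not called higher at 8 than at 0 min, as given below.

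Nodal, the ligand, lies on chromosome 10 (61417972 to 61425338, GRCm38.p6) and had the highest level per length of the set. Its scaled counts at 8 min were 679 and 668 in 4OHT libraries, against 442 and 493 in DMSO libraries. The 4OHT libraries were close to each other and both lay above the DMSO libraries. The log2 fold change was 0.53 (SE 0.11, adjusted p = 0.000636), a 1.44-fold rise. It was called without each of the 4 libraries in turn (0.45 to 0.61) and was also higher on the deposited scale (1.99, adjusted p = 0.00979). In bulk samples such a difference may come from more cells that transcribe a gene or from more RNA per cell, and these cannot be told apart.

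The 2 Nodal inhibitors, which lie on chromosome 1 (Lefty2 at 180893108 to 180899107, Lefty1 at 180935022 to 180938401), did not move alike. Lefty2 had scaled counts of 54.6 and 55.8 in 4OHT libraries, against 109 and 74.6 in DMSO libraries. The groups did not overlap, but the DMSO libraries were far apart. Lefty2 fell by 0.70 on the log2 scale (SE 0.18, adjusted p = 0.0048), and the call was lost without DMSO library 1 (-0.43, adjusted p = 0.106). Lefty1 had 82.6 and 69.7 in 4OHT libraries, against 83.6 and 70.9 in DMSO libraries. Its groups overlapped, with a difference of -0.02 (95% interval -0.37 to 0.33). On the deposited scale Lefty2 was 0.75 higher (not past the threshold) and Lefty1 1.43 higher (adjusted p = 0.0313). The 2 genes are related copies whose sequences were not compared here, and the handling of reads that map to both is not stated, so their separate values are uncertain.

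Among the Wnt ligands, Wnt3a, which acts in the streak and tail bud, was higher in 4OHT cells, and Wnt3, which is needed to start the streak in the embryo, did not differ past the threshold. Wnt3 (chromosome 11, 103774175 to 103818021) had scaled counts of 180.2 and 178 in 4OHT libraries, against 208 and 160.3 in DMSO libraries. The 4OHT values lay between the DMSO values, and the difference was -0.03 (95% interval -0.31 to 0.25), or 1.43 on the deposited scale (adjusted p = 0.0364). Wnt3a (chromosome 11, 59248036 to 59290751) had 32.3 and 33.9 in 4OHT libraries, from 482 and 576 reads, against 15.4 and 25.4 in DMSO libraries, from 218 and 286 reads. Both 4OHT libraries lay above both DMSO libraries, and Wnt3a rose by 0.71 (SE 0.26, adjusted p = 0.0356), having passed the filter through both 4OHT libraries and 1 DMSO library. This call is the weakest of the set, since edgeR on the reads gave 0.70 (adjusted p = 0.0517) and leaving out DMSO library 1 gave 0.37 (adjusted p = 0.295). It was also lost without 4OHT library 1 (0.75, adjusted p = 0.129) or 4OHT library 2 (0.67, adjusted p = 0.157), while the deposited scale gave 2.11 (adjusted p = 0.00273). Wnt9b overlaps Wnt3 in the annotation and strand is not stated, so reads where they overlap cannot be told apart. Wnt9b itself had 162 and 106 reads in 4OHT libraries, against 66 and 50 in DMSO libraries.

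Fgf8, a secreted growth factor of the streak needed for cells to leave it, had the clearest fall. On chromosome 19 (45736491 to 45742941), it had 89 and 86 reads in 4OHT libraries, against 282 and 278 reads in DMSO libraries, or scaled counts of 5.97 and 5.07 against 20.0 and 24.7. The groups were well separated. Fgf8 passed the filter through 1 4OHT and 1 DMSO library of 8 min, with deposited values of 10.6 and 18.6. Fgf8 fell by 1.83 on the log2 scale (SE 0.33, adjusted p = 0.000138) and was called without each library in turn (-2.02 to -1.70). On the deposited scale the direction was the same but the groups overlapped (-0.50, adjusted p = 0.416).

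T (chromosome 17, 8434423 to 8442496), the defining transcription factor of the streak and notochord, had the largest difference of the 10 genes. It had 28 and 24 reads in 4OHT libraries, against 168 and 215 reads in DMSO libraries. The scaled counts were 1.88 and 1.41 in 4OHT libraries, against 11.9 and 19.1 in DMSO libraries. Both 4OHT libraries lay far below both DMSO libraries. With the filter on reads, limma put the log2 fold change at -2.59 (SE 0.39, adjusted p = 0.0139), where 5.87% of genes were lower. The quasi-likelihood test of edgeR gave -3.21 (adjusted p = 0.000275), where 9.15% were lower, and called T without each of the 4 libraries in turn (-3.51 to -2.82). T was the only member whose 4OHT libraries were also both lower on the deposited scale, by 1.45 in the fit with the filter on reads, just short of the threshold (adjusted p = 0.0536). The log2(value + 1) scale understates changes of genes this low.

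The other T-box genes differed less. Tbx6 (chromosome 7, 126781483 to 126785548), which directs cells to paraxial mesoderm, had scaled counts of 32.8 and 31.8 in 4OHT libraries, against 50.2 and 50.9 in DMSO libraries. Libraries of a group were nearly equal and the groups did not overlap. Tbx6 fell by 0.63 (SE 0.20, adjusted p = 0.0184). The call was lost without 4OHT library 1 (-0.65, adjusted p = 0.0805) or 4OHT library 2 (-0.61, adjusted p = 0.0876), and the deposited scale gave 0.80, not past the threshold. Its neighbour Ppp4c, a phosphatase gene 0.318 kb away, fell by 0.51 log2 units (adjusted p = 0.00106), and with strand not stated reads near the gene ends cannot be assigned with certainty. Eomes (chromosome 9, 118478186 to 118486132), a regulator of definitive endoderm and early mesoderm, had 13.4 and 12.7 in 4OHT libraries, against 25.5 and 16.5 in DMSO libraries. Its groups did not overlap, but the difference of -0.61 (SE 0.30) had an adjusted p of 0.111. Without DMSO library 2 it was -0.92 (adjusted p = 0.0257), and on the deposited scale it was 0.77 higher, not past the threshold. The annotation places other genes over part of Eomes (Gm33408), T (LOC115486424) and Lefty1 (Gm39715), and reads of such overlaps cannot be assigned.

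Lhx1 (chromosome 11, 84517975 to 84525534), a LIM-homeodomain factor of the streak and node, passed the filter only through its deposited values in the 4OHT libraries at 8 min. It had 216 and 280 reads in 4OHT libraries, against 226 and 100 in DMSO libraries, or scaled counts of 14.5 and 16.5 against 16.0 and 8.87. The groups overlapped, and the difference of 0.35 (95% interval -0.32 to 1.02) had an adjusted p of 0.434. On the deposited scale it was 1.71 (adjusted p = 0.0132). The noncoding gene Lhx1os lies 0.126 kb away and had 38 and 22 reads in 4OHT libraries, against 70 and 34 in DMSO libraries.

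**Figure D1:**
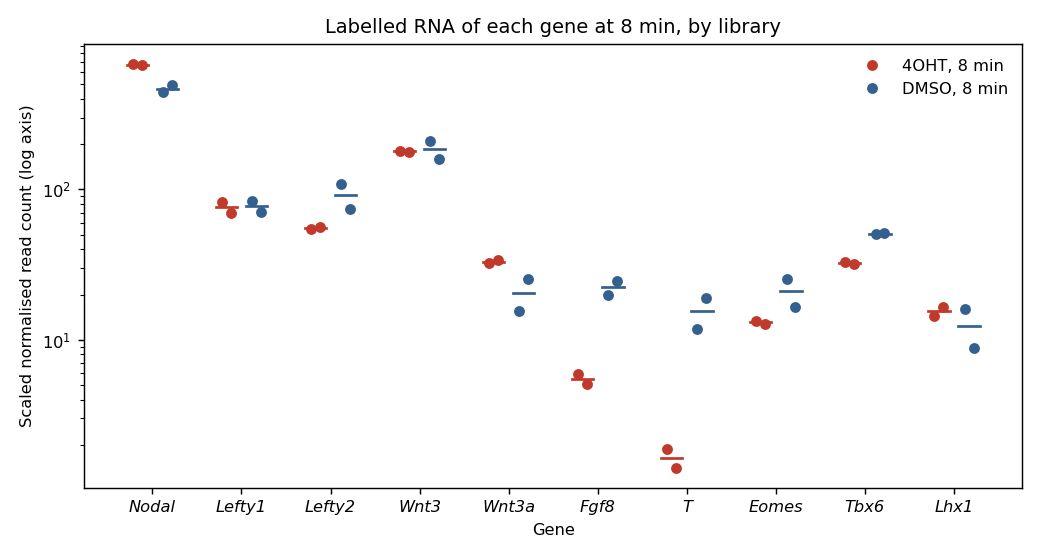
Scaled normalised read counts at 8 min for the 10 genes on a log axis, with 1 point per library and a line at the mean of each group of 2. Fgf8 and T show the widest gaps, with 5.97 and 5.07 against 20.0 and 24.7 for Fgf8, and Lefty1, Wnt3 and Lhx1 overlap between 4OHT and DMSO cells.

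The plot of scaled counts by library shows how close the 4OHT libraries lie for most members and how much wider the DMSO libraries spread for Lefty2, Wnt3, Wnt3a, T, Eomes and Lhx1. The plot of fold changes on both scales shows that changing the scale shifts every member upwards. Nodal, Wnt3a, Lhx1, Fgf8 and T kept their sign on the deposited scale in these fits, and Lefty1, Lefty2, Wnt3, Tbx6 and Eomes did not.

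**Figure D2:**
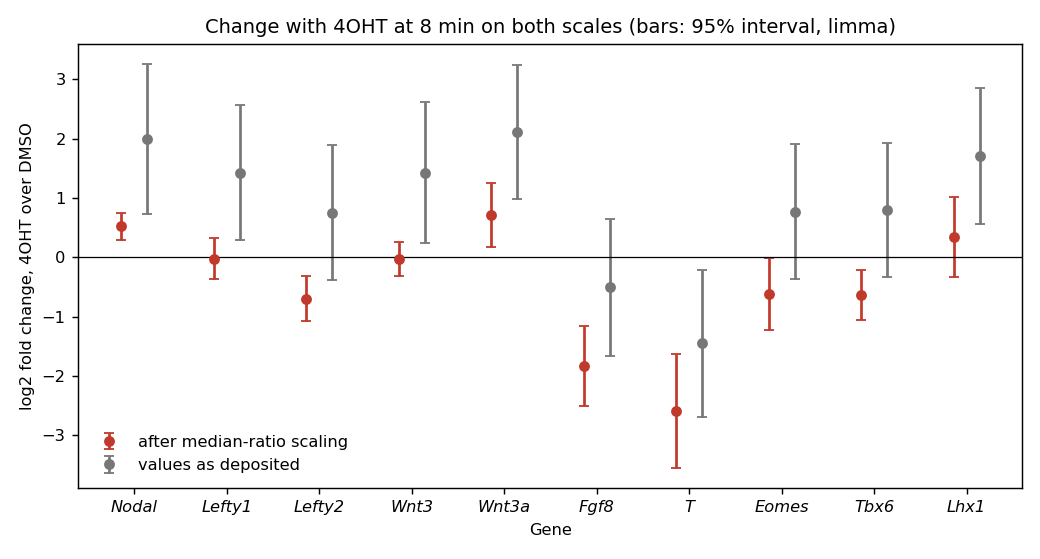
Log2 fold change of each gene at 8 min, 4OHT over DMSO, from limma with 95% intervals, after median-ratio scaling (red) and with values as deposited (grey). T comes from the fits with the filter on reads and the other genes from the fit of 20635 genes; after scaling, the intervals of Nodal, Wnt3a, Lefty2, Fgf8, T and Tbx6 exclude 0, as does that of Eomes before adjustment.

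The deposited scale gave 5 members higher, where 59.6% of genes were, and 0 lower, where 0.15% were. The 5 include Lhx1, which passed the filter only through the 4OHT libraries of 8 min. The filter was set on that same scale and so favoured its rise. On the reads, edgeR called 1 member higher, where 18% of genes were, and 3 lower, where 16.4% were. With the filter on reads, limma called 1 member higher, where 7.74% of genes were, and 2 lower, where 5.87% were. With that filter edgeR called 1 higher, where 10.6% were, and 4 lower, where 9.15% were. These calls rest on the spread among the 4 libraries of 8 min. With the spread estimated over all 8 libraries, 0.00969% of genes were called higher and 0.141% lower, and none of the 9 tested members passed, with an adjusted p of 0.425 for Nodal and 0.165 for Fgf8.

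Levels were compared between genes as scaled counts per kb of gene span at 8 min, since labelled RNA covers introns. Wnt3 and Wnt3a span 43.8 and 42.7 kb, and the other members 3.38 to 8.07 kb. How far along a gene new RNA reached in 8 min is not known from these counts. Division by the whole span may therefore understate Wnt3 and Wnt3a beside the shorter genes. Nodal stood highest, with 91.4 ± 1.09 in 4OHT and 63.5 ± 4.85 in DMSO cells (SD, n = 2 here and below). Lefty1 had 22.5 ± 2.72 in 4OHT and 22.8 ± 2.66 in DMSO cells. Lefty2 had 9.20 ± 0.14 in 4OHT and 15.3 ± 4.03 in DMSO cells, and Tbx6 had 7.94 ± 0.17 in 4OHT and 12.4 ± 0.13 in DMSO cells. In DMSO cells Lefty2 and Tbx6 did not differ beyond the spread of Lefty2. Wnt3 had 4.08 ± 0.04 in 4OHT and 4.20 ± 0.77 in DMSO cells, and Fgf8 had 0.855 ± 0.098 in 4OHT and 3.46 ± 0.515 in DMSO cells, so that these neighbours lay within the spread of Wnt3 in DMSO cells and apart in 4OHT cells. Eomes had 1.64 ± 0.06 in 4OHT and 2.64 ± 0.80 in DMSO cells, Lhx1 had 2.05 ± 0.19 in 4OHT and 1.64 ± 0.67 in DMSO cells, and T had 0.204 ± 0.04 in 4OHT and 1.92 ± 0.63 in DMSO cells. In DMSO cells T lay within the spread of Eomes and of Lhx1, and Eomes was above Lhx1 by more than either SD, although their libraries overlapped. Wnt3a had 0.776 ± 0.027 in 4OHT and 0.477 ± 0.164 in DMSO cells. In 4OHT cells T had the lowest level per kb of the set, and in DMSO cells Wnt3a did, a rank that rests on division by its whole span.

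At 0 min, when no labelling time had passed, none of the 9 members differed past the threshold between 4OHT and DMSO cells, and 0% of the 20635 genes did. At an unadjusted p under 0.05 limma gave 232 genes, edgeR 145 and DESeq2 272, and the members among the 232 were Wnt3a and Lhx1. Wnt3a had 32 and 62 reads in 4OHT libraries, against 6 and 6 in DMSO libraries, so its 4OHT libraries were the higher ones at both times. The log2 fold change was 1.32 (SE 0.43, adjusted p = 1). Lhx1 had 10 and 2 reads in 4OHT libraries, against 36 and 32 in DMSO libraries (-1.22, SE 0.40, adjusted p = 1), while Lhx1os next to it had 28 and 58 reads, against 2 and 2. Tbx6 had 58 and 14 reads in 4OHT libraries, against 84 and 67 in DMSO libraries (-1.04, SE 0.56, adjusted p = 1). T, in contrast to 8 min, overlapped, with 150 and 60 reads in 4OHT libraries, against 89 and 62 in DMSO libraries. Fgf8 had 116 and 124 reads in 4OHT libraries, against 101 and 108 in DMSO libraries, scaled counts of 6.02 and 6.63 against 5.05 and 7.59. Nodal, Lefty1, Lefty2, Wnt3 and Eomes also overlapped between the groups, with log2 fold changes between -0.20 and 0.05.

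The difference between the 8 min and 0 min effects of 4OHT was tested in a fit of all 8 libraries, and 0% of genes passed, members included (80 genes, none of them a member, on the deposited scale). At an unadjusted p under 0.05 limma gave 1300 genes and edgeR 1328. Fgf8 had a difference of -1.80 (SE 0.55, unadjusted p = 0.0103, adjusted p = 0.743) and Lhx1 one of 1.90 (SE 0.66, unadjusted p = 0.0198, adjusted p = 0.755). T, with the filter on reads, had -2.51 (SE 0.73, unadjusted p = 0.00864, adjusted p = 0.699). That T and Fgf8 were lower at 8 min and overlapped at 0 min is therefore not shown to be a difference between the times.

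Scaled counts are set within each comparison, so those between times are on another scale than those between treatments. The make-up of the libraries also differed between times. The gene entry Gm26917 held 23.2% to 27.7% of all reads at 0 min and 2.67% to 3.92% at 8 min. Between the 8 and 0 min libraries, which also differ in cell line number, some members were higher and others lower at 8 min, relative to the typical gene. Tbx6, Wnt3a, Eomes, Lhx1 and Fgf8 passed the filter only through 8 min libraries. The filter thus favoured a higher level at 8 min for these genes, and the counts of higher members below support nothing. In DMSO cells 3 members were higher at 8 than at 0 min, where 30.1% of genes were, and 2 were lower, where 26.1% were. Nodal had scaled counts of 170.4 and 193 at 8 min, against 87.7 and 84.7 at 0 min, and rose by 1.06 on the log2 scale (SE 0.21, adjusted p = 0.00731). Tbx6 had 19.3 and 19.9 at 8 min, against 5.85 and 6.53 at 0 min (1.52, SE 0.35, adjusted p = 0.0121). Wnt3a had 218 and 286 reads at 8 min, against 6 and 6 at 0 min, and rose by 2.54 (SE 0.43, adjusted p = 0.00478). Lefty2 was lower at 8 min, with 41.9 and 29.2, against 96.4 and 73.6 at 0 min (-1.24, SE 0.29, adjusted p = 0.0133). Wnt3 was lower too, with 80.3 and 62.8 at 8 min, against 146 and 174 at 0 min (-1.16, SE 0.24, adjusted p = 0.00864). Eomes (0.78), Lhx1 (0.57), Fgf8 (0.00) and Lefty1 (-0.27) did not pass. T gave 0.16 with the filter on reads (adjusted p = 0.789).

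In 4OHT cells 4 members were higher at 8 than at 0 min, where 27.2% of genes were, and 3 were lower, where 25.2% were. Nodal (1.44, adjusted p = 0.00568), Tbx6 (2.17, adjusted p = 0.0338), Wnt3a (1.72, adjusted p = 0.0256) and Lhx1 (2.74, adjusted p = 0.00924) were the higher ones, though edgeR on the reads did not call Tbx6 (2.17, adjusted p = 0.0571). Lhx1 had 216 and 280 reads at 8 min, against 10 and 2 at 0 min. It passed the filter only through these 8 min libraries, so the filter favoured this direction and the gap does not support the call. Lefty2 (-2.01, adjusted p = 0.00669), Fgf8 (-1.89, adjusted p = 0.0129) and Wnt3 (-1.09, adjusted p = 0.0218) were the lower ones, though Wnt3 was lost with the filter on reads (-0.77 in limma, adjusted p = 0.0899, and -0.78 in edgeR, adjusted p = 0.0877). Fgf8 had scaled counts of 4.10 and 3.56 at 8 min, against 16.3 and 17.5 at 0 min, with libraries of a time close together. T was lower at 8 min with the filter on reads (-2.52, adjusted p = 0.0345), with 28 and 24 reads against 150 and 60 at 0 min. Eomes (0.28) and Lefty1 (-0.36) did not pass. Without either 8 min library no gene was called in the DMSO or in the 4OHT comparison, and on the deposited scale the median gene was 1.25 higher at 8 min in DMSO and 2.49 higher in 4OHT cells, so that Wnt3 (0.09), Lefty1 (0.95) and Fgf8 (1.13) in DMSO cells and Lefty1 (2.12), Lefty2 (0.48), Fgf8 (0.33) and Wnt3 (1.42) in 4OHT cells changed sign, and Lefty2 in DMSO cells stood at -0.01.

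**Figure D3:**
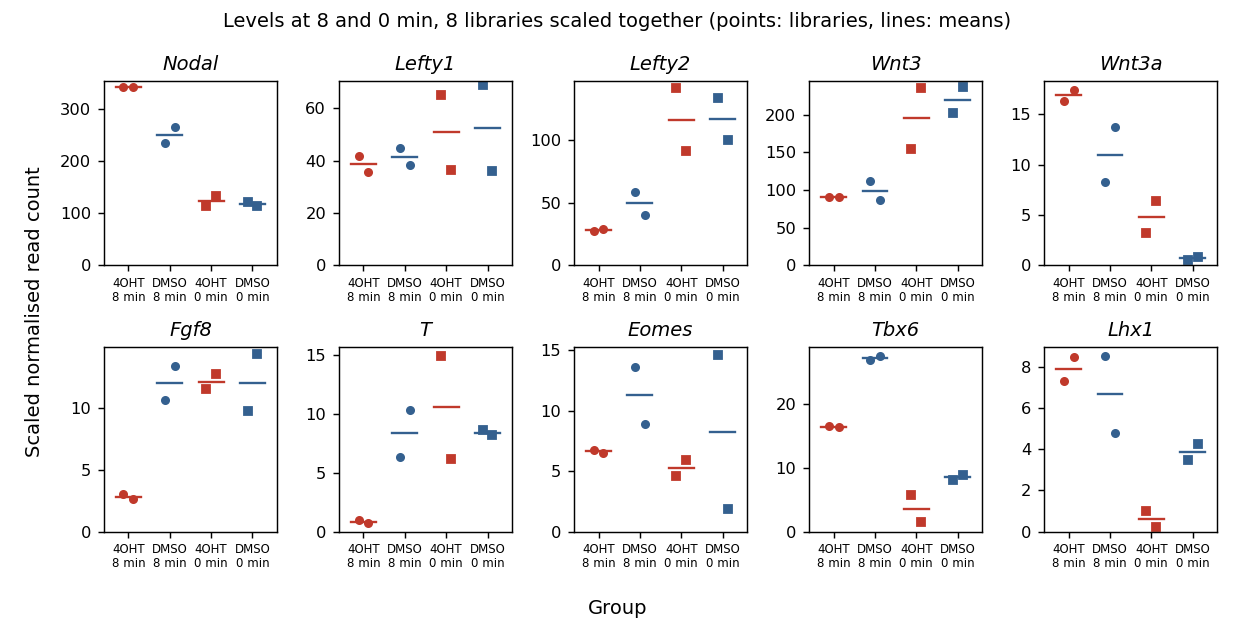
Scaled normalised read counts of each gene in the 4 groups after scaling all 8 libraries together, with 1 point per library (circles at 8 min, squares at 0 min) and a line at each group mean. Relative to the typical gene, Fgf8 and T stand apart in 4OHT cells at 8 min and Nodal and Wnt3a are highest there. On this scale Lefty2 and Wnt3 are higher at 0 min than at 8 min in both treatments. On the deposited scale the log2 fold changes of 8 over 0 min are 0.09 (DMSO) and 1.42 (4OHT) for Wnt3, and -0.01 and 0.48 for Lefty2.

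Other tested genes of the Nodal pathway were more often higher than lower with 4OHT at 8 min. Of 24 pathway genes, 18 were tested, 9 rose, 1 fell and 8 did not pass, where 18.6% of all genes were higher and 16.7% lower, with a median log2 fold change of 0.29 beside 0.00 over all genes. Of the 6 below the filter, 1 had both 4OHT libraries higher, 3 had both lower and 2 overlapped. Among all genes past the filter 33.6% had both higher and 33.7% both lower, and the shares below the filter were not computed. Smad3, a transducer of the Nodal signal, rose by 1.45 (adjusted p = 3.14e-08), with 4751 and 4346 reads in 4OHT libraries, against 1598 and 1078 in DMSO libraries. The SMAD co-repressors Ski (0.62) and Skil (0.59) and the Nodal-related ligand Gdf3 (0.51) also rose. Those that rose thus hold both a transducer and repressors of the pathway. Tdgf1, the Nodal co-receptor and a gene of undifferentiated stem cells, was the one that fell, by 0.66, with scaled counts of 1051 and 869 in 4OHT libraries, against 1649 and 1386 in DMSO libraries. On the deposited scale Tdgf1 was 0.81 higher, not past the threshold, and Gdf3 was lost without 4OHT library 1 (0.46, adjusted p = 0.0519).

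Wnt pathway genes were called in both directions at 8 min, at shares near those of all genes. Of 62 genes, 61 were in the table and 52 were tested; 13 rose, 7 fell and 32 did not pass, with a median of 0.15, beside 18.6% of all genes higher and 16.7% lower. Of the 52, 7 passed the filter only through the 4OHT libraries of 8 min, which bears on the count of higher genes and the median. The ligand Wnt9a rose by 0.88, the kinase gene Gsk3b by 0.47 and the transcription factor gene Tcf7 by 0.53, and Znrf3, which encodes a ligase that removes Wnt receptors, rose by 0.55. The secreted Wnt enhancers Rspo2 and Rspo3 fell by 1.23 and by 1.28 on the log2 scale, the signal transducer Dvl2 fell by 0.57, and Sfrp1, a secreted Wnt antagonist, fell by 0.80. These 4 were 0.05 to 0.90 higher on the deposited scale and not past the threshold there. Rspo3 was lost without 4OHT library 1 (-0.87, adjusted p = 0.157), Sfrp1 without 4OHT library 2 (-0.47, adjusted p = 0.177) and Tcf7 without 4OHT library 1 (0.42, adjusted p = 0.0629). Axin2, a direct target of Wnt signalling, had scaled counts of 60.2 and 66.0 in 4OHT libraries, against 82.4 and 75.9 in DMSO libraries (-0.32, adjusted p = 0.139).

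Most other streak and mesendoderm genes were too low to test. Of 28 such genes 10 passed the filter, of which 3 rose, 1 fell and 6 did not pass, with a median of 0.22, beside 18.6% and 16.7% of all genes. Kdr, Snai1 and Dll3, 3 of the 10, passed the filter only through the 4OHT libraries of 8 min, which bears on the count and the median. Pou3f1, counted in this list though a factor of the epiblast and early neural tissue, rose by 1.53 (limma adjusted p = 3.57e-05). Its reads were 669 and 709 in 4OHT libraries, against 200 and 164 in DMSO libraries. Kdr, a receptor of blood and vessel precursors, rose by 1.29 and the Notch ligand Dll1 by 0.58, while Fgf17, a relative of Fgf8, fell by 0.68 (adjusted p = 0.0454). Leaving out single libraries ended the calls of Kdr (without 4OHT library 1, 1.08, adjusted p = 0.194, or DMSO library 1, 0.90, adjusted p = 0.0902) and Dll1 (without 4OHT library 1, 0.24, adjusted p = 0.477). Fgf17 was lost without any of the 4, and edgeR on the reads gave -0.71 (adjusted p = 0.0542). Among the genes below the filter, chosen after their values were seen, Mixl1, a homeobox gene of the streak, had 20 and 54 reads in 4OHT libraries, against 113 and 103 in DMSO libraries (edgeR with the filter on reads -1.89, adjusted p = 0.0285), and Evx1, another streak homeobox gene, had 12 and 23 reads, against 194 and 95. In the other direction, Evx2, a homeobox gene related to Evx1, had 18 and 18 reads in 4OHT libraries, against 0 and 0 in DMSO libraries, and Mesp1, a factor of early mesoderm, had 12 and 18, against 6 and 2. Of the 18 genes below the filter, 3 had both 4OHT libraries higher, 6 had both lower and 9 overlapped. Among all genes past the filter 33.6% had both higher and 33.7% both lower, and the shares below the filter were not computed. These counts therefore support no direction.

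**Figure D4:**
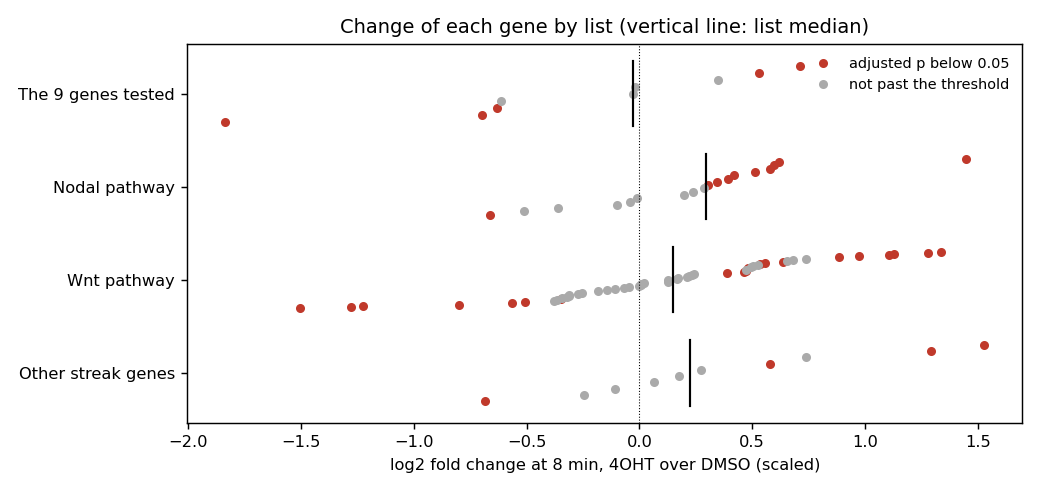
Log2 fold change at 8 min, 4OHT over DMSO after scaling, of each tested gene among the 9 members tested and 3 lists of related genes. Red points passed an adjusted p of 0.05 in limma, grey points did not, and the vertical lines are list medians, which are -0.03 for the members, 0.29 for the Nodal pathway, 0.15 for the Wnt pathway and 0.22 for the other streak genes.

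Markers of other cell states moved with 4OHT at 8 min beside these genes, where 18.6% of all genes were higher and 16.7% lower. Of 22 genes that mark the 2-cell embryo 11 were tested and 11 rose, but none of the 11 reached the value of 10 in a DMSO library of 8 min, so the filter in part fixed that direction. All genes of the list in the table, below the filter or not, had summed levels of 68.6 and 62.3 RPM (reads per M of all reads) in 4OHT libraries, against 7.82 and 7.72 in DMSO libraries. Zscan4d, the first of them by p, rose by 3.39, though near-identical copies leave single values uncertain. Of 17 stem cell markers 2 rose, 6 fell and 9 did not pass (median -0.15, summed 1106 and 1084 against 1276 and 1127). Nanog fell by 1.01 and Tdgf1 by 0.66, while Dppa4 rose by 0.64 and Sox2 by 0.43. Of 14 trophoblast markers 9 were tested, 1 rose and 4 fell (median -0.61, summed 18.9 and 21.3 against 30.9 and 32.0), Krt19 by 1.66 and Krt18 by 1.14, while Krt7 rose by 1.35. Of 15 primitive endoderm markers 11 were tested, 3 rose and 1 fell (median 0.28, summed 111 and 107 against 75.1 and 72.2), with Lamb1 (1.59) and Lama1 (1.04) among those that rose and Cubn the one that fell. Gata4 and Gata6, defining factors of that lineage, did not pass, with 290 and 290 reads in 4OHT against 220 and 126 in DMSO libraries for Gata4, and 250 and 466 against 405 and 309 for Gata6. Primitive endoderm markers at 0 reads in some library of 8 min were Foxa2 (both 4OHT libraries), Sox7 (1 4OHT and 1 DMSO library) and Sox17 (1 DMSO library). Of 12 fibroblast markers 4 were tested and Col1a1 fell by 1.04 (summed 6.42 and 11.2 against 9.59 and 9.94). The part of these cell states in the members' values was not tested.

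The genes whose levels over the 8 libraries were most like those of each member were found as the smallest root mean square difference of centred log2 scaled values, among 20634 other genes. For Nodal they were Gpalpp1 (0.0689) and Mapk9 (0.0715), for Lefty1 Rps9 (0.0939) and Gm20441 (0.102), for Lefty2 Gm12475 (0.103) and Gm12734 (0.106), and for Wnt3 Gm5592 (0.0935) and Carf (0.105). The low genes had no partner as close. Wnt3a was nearest to Gm15063 (0.206) and Slco4c1 (0.254), Eomes to Cdk5 (0.273) and Tmem217 (0.286), Tbx6 to AC159106.2 (0.221) and Scnm1 (0.238), and Lhx1 to Gm44116 (0.259) and 1110012L19Rik (0.278). None of the 9 members compared was among the 2 nearest genes of another, and T, below the filter, was not compared.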

How the data were processed

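RNA isolated by 4sUDRB-seq was measured in 8 libraries. The authors deposited 1 table of signal values, normalised read counts, for 38971 entries (37730 genes). The tools were STAR 2.7, Bowtie2 and bcl2fastq with the mm10 build, per the submitters' processing notes; the strand counted and the treatment of reads with several map positions are not given in the sources used here. Multiplied by a divisor constant within each library (8.095 to 29.49), all values came within 0.01 of whole reads. Among genes with 1 to 20 reads, 84.1% to 89.9% had an even number of reads, so reads are not independent molecules and counting error understates the spread. Columns whose name lacks 4OHT were taken as DMSO and columns were assigned to groups only.

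From the deposited signal, log2(value + 1) after median-ratio scaling was fitted with limma 3.58.1 (R 4.3.3; trended empirical Bayes, two-sided) on the 4 libraries compared, or on all 8 for the difference between times, for genes reaching 10 in 2 or more of 8 libraries, with Benjamini-Hochberg adjustment at 0.05 over all genes tested. Alternatives were edgeR 4.0.16 (quasi-likelihood) or DESeq2 1.42.0 run on recovered reads, other pseudocounts (0.5 or 5), a minimum of 100 or none, quantile normalization, no trend, a replicate block, leaving out each library, and values as deposited. The filter on reads (at least 10 in 2 libraries) was added after the data were seen. The fits were tested on simulated data. The members and gene lists were chosen with earlier results of these data known. Named list genes are the 4 (marker lists 2) of smallest p past the threshold at 8 min in each direction, and genes outside this are named as such or serve as levels (Axin2, Wnt9b, Ppp4c, Lhx1os). Coordinates and promoters come from RefSeq (GRCm38.p6), whose symbols matched 27329 entries. A label of 4 min named in the protocol was not analysed here, and the genes nearest to Fgf8 in level are not reported here.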

Additional observations from a re-analysis of the deposited data

How the results depend on the processing

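At 8 min the 2 members called higher and 3 called lower became 0 and 0 with no filter or with the spread estimated over all 8 libraries, 1 and 0 with a minimum of 100 (which tested Nodal, Lefty1 and Wnt3 alone) and 5 and 0 with values as deposited, with either filter. Higher members numbered 1 with edgeR, with DESeq2 and with the filter on reads (limma, edgeR or DESeq2), and 0 with no trend; leaving out 1 library gave 1 to 2 higher and 2 to 4 lower. Over all genes, 3834 higher and 3449 lower became 0 and 0 with no filter, 2295 and 2115 with a minimum of 100, 12289 and 31 as deposited, 2233 and 2055 with no trend, 2 and 29 with all 8 libraries, 2525 and 1915 with the filter on reads, 12825 and 109 as deposited with that filter, and 2144 and 2007 without 4OHT library 1. Scaling alone turned the sign, to 1.43 for Lefty1 and Wnt3, 0.75 for Lefty2, 0.80 for Tbx6, 0.77 for Eomes and 0.93 for Ythdc1. The cause of these changes was not tested, other than fewer genes tested with the minimum of 100.

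For 8 against 0 min in DMSO cells, 3 higher and 2 lower members became 1 and 1 with a minimum of 100 and 5 and 0 as deposited, lower members were 0 with no filter and 1 with the filter on reads (limma or edgeR), and leaving out 1 library gave 0 to 4 higher and 0 to 3 lower. In 4OHT cells, 4 higher and 3 lower became 2 and 1 with no filter, 1 and 1 with a minimum of 100 and 6 and 0 as deposited, and leaving out 1 library gave 0 to 4 in each direction. In 4OHT cells edgeR did not call Tbx6 and the filter on reads did not keep Wnt3. As deposited, Wnt3 turned to 0.09, Lefty1 to 0.95 and Fgf8 to 1.13 in DMSO cells, and Lefty1 to 2.12, Lefty2 to 0.48, Fgf8 to 0.33 and Wnt3 to 1.42 in 4OHT cells. All genes higher and lower in DMSO cells, 6214 and 5386, became 3139 and 3235 with a minimum of 100, 10071 and 502 as deposited, and 0 and 0 without either 8 min library; the lower count was 1932 with no filter and 3577 with the filter on reads. In 4OHT cells 5614 and 5197 became 2803 and 3017, 14272 and 122, and 0 and 0 in the same settings, 2751 lower with no filter, and 8484 and 7968 or 8506 and 8210 without 1 of the 0 min libraries. At 0 min no member and no gene was called under any of the settings run, and for the difference between times no member was, and 80 genes were (all higher) with values as deposited and 0 in the other settings.

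Libraries of the same number deviated together by correlations of 0.0191 to 0.416, not all over 0.1, and were not treated as pairs. The highest, 0.416, was between 4OHT and DMSO cells at 0 min, the groups compared at that time. Spike-in reads at 0 min also differed by number, with 59088 (4OHT) and 73608 (DMSO) for number 1, against 385228 and 286488 for number 2. What the numbers stand for is not stated. With a replicate block the member counts at 8 min were again 2 higher and 3 lower, over all genes 4306 and 3951, and 0 at 0 min. The planned levels per kb of exons were not run, as exon lengths were not used here. With 2 libraries per group and 24 to 28 reads of T in 4OHT cells, sizes of fold change at low counts are loosely bounded.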
